A study of Homo sapiens with 6 samples.

Results

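The proteins of the major spliceosome were followed through the deposited count table, which has 1 row per gene symbol. A list of 59 proteins was used, chosen by name from the U1 and U2 particles, the Sm ring, the U4/U6.U5 tri-snRNP, the Prp19 complex and the catalytic steps. All 59 were found among the 59087 rows, and they were divided into 10 subcomplexes. The study compared HEK293T cells, an established human embryonic kidney line, of wild type (WT) with cells of 2 separate THUMPD2 knockout lines, labelled KO#1 and KO#2 and called KO1 and KO2 below. The THUMPD2 enzyme methylates a base in the catalytic centre of U6 RNA, and the libraries were made to look for altered expression and splicing in its absence. Each group had 2 libraries of total RNA, with total counts between 7414339 and 8391143 per library. The labels do not say how the lines were made, whether each is a single clone, or if a group's libraries stem from separate cultures. The p-values below therefore reflect no more than library-to-library spread, possibly technical, and 1 WT line stood for all wild-type cells.

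The spliceosome removes introns from precursor mRNA in cycles of assembly and remodelling. The U1 particle recognises the start of the intron, U2 pairs with the branch site, and the U4/U6.U5 tri-snRNP then joins. Helicases unwind U4 from U6 and release U1, the Prp19 complex stabilises the active site that U6 and U2 form, and further helicases drive the branching and ligation steps and take the complex apart. Most of these proteins are needed in every dividing cell.

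The member rows held few reads. Together they took between 0.0611% and 0.0674% of a library's counts. Over the 6 libraries 47 of the 59 rows had a mean under 100 reads and 27 had a mean under 20, and the median of these means was 29.7 reads, against 40 reads over all 14184 rows that had enough reads to be tested. BUD31, a Prp19-complex partner that sits near the active site, was an exception with a mean of 1524 reads, which made up 30.2% of all member reads. Per kilobase of annotated exon the member rows ran from 0.480 reads for AQR, a helicase that binds the intron, to 642 reads for BUD31. The THUMPD2 row itself held 1 and 2 reads in WT, 3 and 0 for KO1, and 0 and 1 for KO2, too few to check the genotype labels.

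The libraries were made with a kit that keeps the strand, and the strand setting of the counting is not given in the sources used here. Each member row was therefore set beside the rows of genes that GENCODE v29 places on the other strand over its exons. At least 100 shared exonic bases were found for 16 members, with 20 opposite-strand rows. Another 8 members shared fewer than 100 bases with such a gene, and 35 shared none. The 20 pairs comprised 10 arranged head to head, 6 tail to tail and 4 with the opposite gene inside the member. The opposite rows had a median mean of 1534 reads and took 0.491% to 0.513% of a library's counts, whereas the 16 members under them had a median of 73.4 reads and the other 43 members a median of 19 reads. The opposite genes of each pair are named with their members below, apart from TFPT over PRPF31 and TXNL4B over DHX38, whose rows were called in neither line. With fewer than 100 bases, LSM7 lay under SPPL2B, SNU13 under C22orf46, TXNL4A under HSBP1L1, SNRPA under C19orf54, SNRPD2 under QPCTL, PPIE under BMP8B, DHX8 under ETV4 and DHX16 under C6orf136, and TMEM150A and C14orf178 were further such neighbours of USP39 and SNW1. LSM7 lay within an intron of AC005258.1, and PRPF38A, SNRPB2 and CDC40 overlapped the gene spans of TUT4, AL034428.1 and METTL24 in part, with no shared exonic base. In 16 of the 20 pairs the opposite row held more reads than the member row. Which strand the RNA behind a row came from was not tested, so a value below belongs to a row of the table and not by itself to the mRNA of the member.

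In 7 of the pairs with at least 100 shared bases, some of these bases lie in coding sequence of the member. Pairs not shown here had larger read ratios, such as 247 times for AC098484.4 over PPIH and 199 times for PLEKHJ1 over SF3A2. The sequences of coding stretches from 3 of the 7 pairs are given as examples of what is shared. They were read from GENCODE v29 transcripts on GRCh38, are written 5′ to 3′ on the member's strand, and are in capitals because every base shown also lies under an exon of the opposite gene.
PRPF31 (chr19:54123749-54123918, plus strand, under AC245052.4): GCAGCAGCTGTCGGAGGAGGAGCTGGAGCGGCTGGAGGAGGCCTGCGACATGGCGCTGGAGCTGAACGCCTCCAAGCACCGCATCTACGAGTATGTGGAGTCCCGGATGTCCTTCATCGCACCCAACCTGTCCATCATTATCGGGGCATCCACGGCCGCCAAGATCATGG
SNW1 (chr14:77720711-77720828, minus strand, under SLIRP): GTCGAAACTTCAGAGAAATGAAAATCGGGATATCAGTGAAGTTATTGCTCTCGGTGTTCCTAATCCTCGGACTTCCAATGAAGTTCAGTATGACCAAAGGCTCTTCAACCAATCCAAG
DHX38 (chr16:72112413-72112494, plus strand, under PMFBP1): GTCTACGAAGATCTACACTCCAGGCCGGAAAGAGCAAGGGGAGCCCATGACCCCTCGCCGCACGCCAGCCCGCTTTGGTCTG
PRPF31 is a U4/U6 protein of the tri-snRNP. AC245052.4 is an annotated antisense transcript that lies inside PRPF31, with all 589 shared bases in PRPF31 coding sequence. The AC245052.4 row had 9823 and 10358 reads in WT, 10694 and 10411 for KO1, and 9316 and 10025 for KO2. The PRPF31 row had 167 and 161 reads in WT, 190 and 190 for KO1, and 156 and 189 for KO2, so the opposite row was the larger by 57.6 times over the 6 libraries. SNW1, an adaptor of the Prp19-related proteins, shares 118 coding bases with SLIRP, an RNA-binding protein of mitochondria, and the SLIRP row held 43.4 times as many reads. DHX38, the helicase that remodels the complex after branching, shares 433 bases with PMFBP1, 154 of them in DHX38 coding sequence, and the PMFBP1 row held 17.9 times as many reads.

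**Figure D1:**
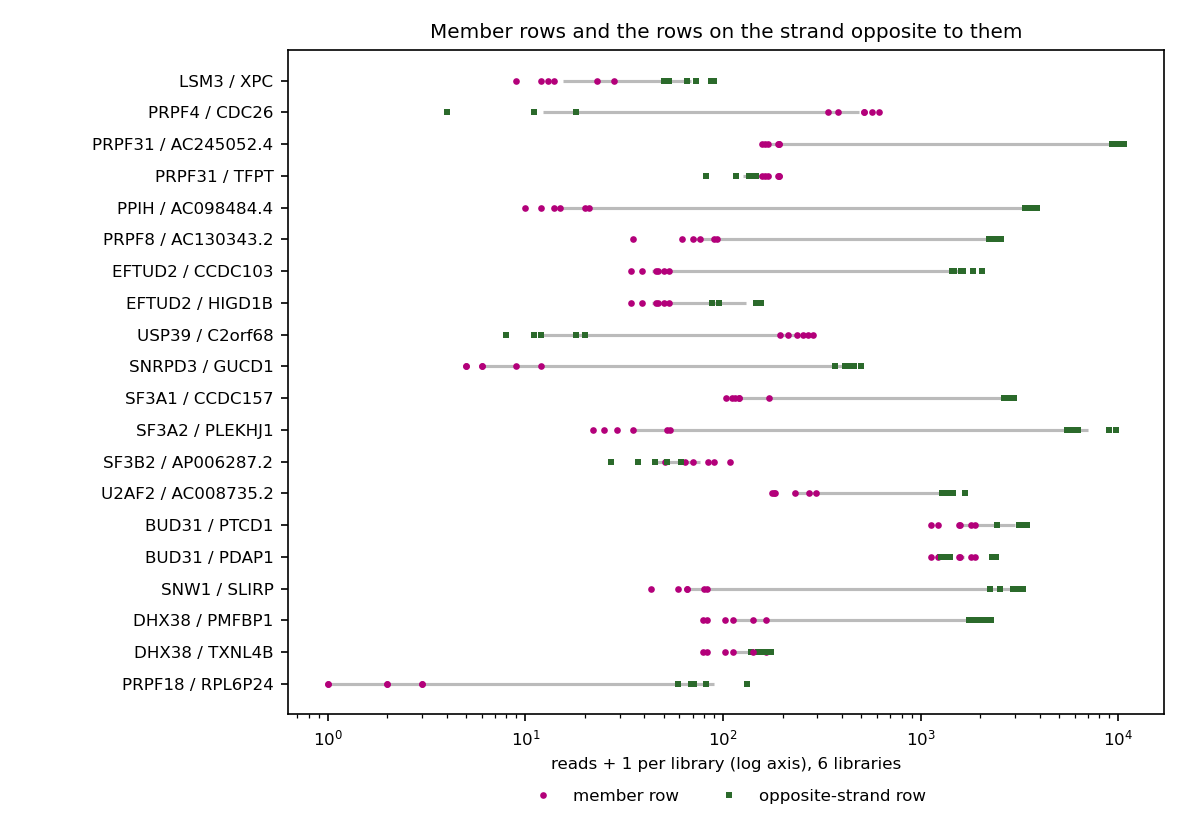
Reads plus 1 in each of the 6 libraries (log axis) for the 20 pairs of a member row (circles) and a row on the opposite strand with at least 100 shared exonic bases (squares). In 16 of the 20 pairs the squares lie to the right on average, and the exceptions are PRPF4 with CDC26, USP39 with C2orf68, SF3B2 with AP006287.2 and PRPF31 with TFPT.

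A part of the member rows differed between the lines and WT. By edgeR's quasi-likelihood test over all rows, where a Benjamini-Hochberg adjusted p under 0.05 made a call, 6 of the 53 tested members were higher and 1 was lower in KO1, shares of 11.3% and 1.89%, where 10.4% of all rows were called higher and 13.3% lower. In KO2, 8 were higher and 4 lower, shares of 15.1% and 7.55%, against 13.6% and 15.4% of all rows. In the mean of both lines 10 were higher and 4 lower, shares of 18.9% and 7.55%, where all rows gave 12.3% and 15.9%. The members' share called higher was thus near that of all rows in each single line and above it in the mean. Their share called lower was smaller than that of all rows. The 6 untested rows (TXNL4A, SNRPD3, SNRPB2, PLRG1, AQR and PRPF18) had means of 1 to 9.67 reads.

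Only PPIE was called with the same sign in both lines, and it was lower; 7.72% of all rows were lower in both and 5.79% higher in both. No member was called higher in both lines by edgeR, while 4 had an unadjusted p under 0.05 upward in both, and DESeq2 gave 0 and limma-voom 1. Between the lines 5 members were higher in KO1 and 2 lower, shares of 9.43% and 3.77%, against 10.1% and 10.3% of all rows. Of the 18 members called in KO1 or in KO2, none was called with opposite signs in the 2 lines. The shares of all rows called in either line, or with opposite signs, were not computed. DESeq2 also made 4 of the 7 calls in KO1 (PRPF8, SF1, PUF60 and PPIE), 4 of the 12 in KO2 (PRPF4, SNRNP70, U2AF2 and BUD31) and 3 of the 7 between the lines (PRPF4, BUD31 and PPIE). The rows of some 10 Mb bins, such as those of BUD31 and SLIRP, had medians away from 0, and values with the median of a row's own 10 Mb bin taken out are given below where that ended a call. In bulk libraries fewer cells with a transcript and less of it per cell cannot be told apart. The median log2 fold change of the tested members was 0.25 in KO1 and 0.27 in KO2, against 0.011 and 0.022 over all rows. Both lines were set against the same WT libraries, so these medians are not separate evidence.

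**Figure D2:**
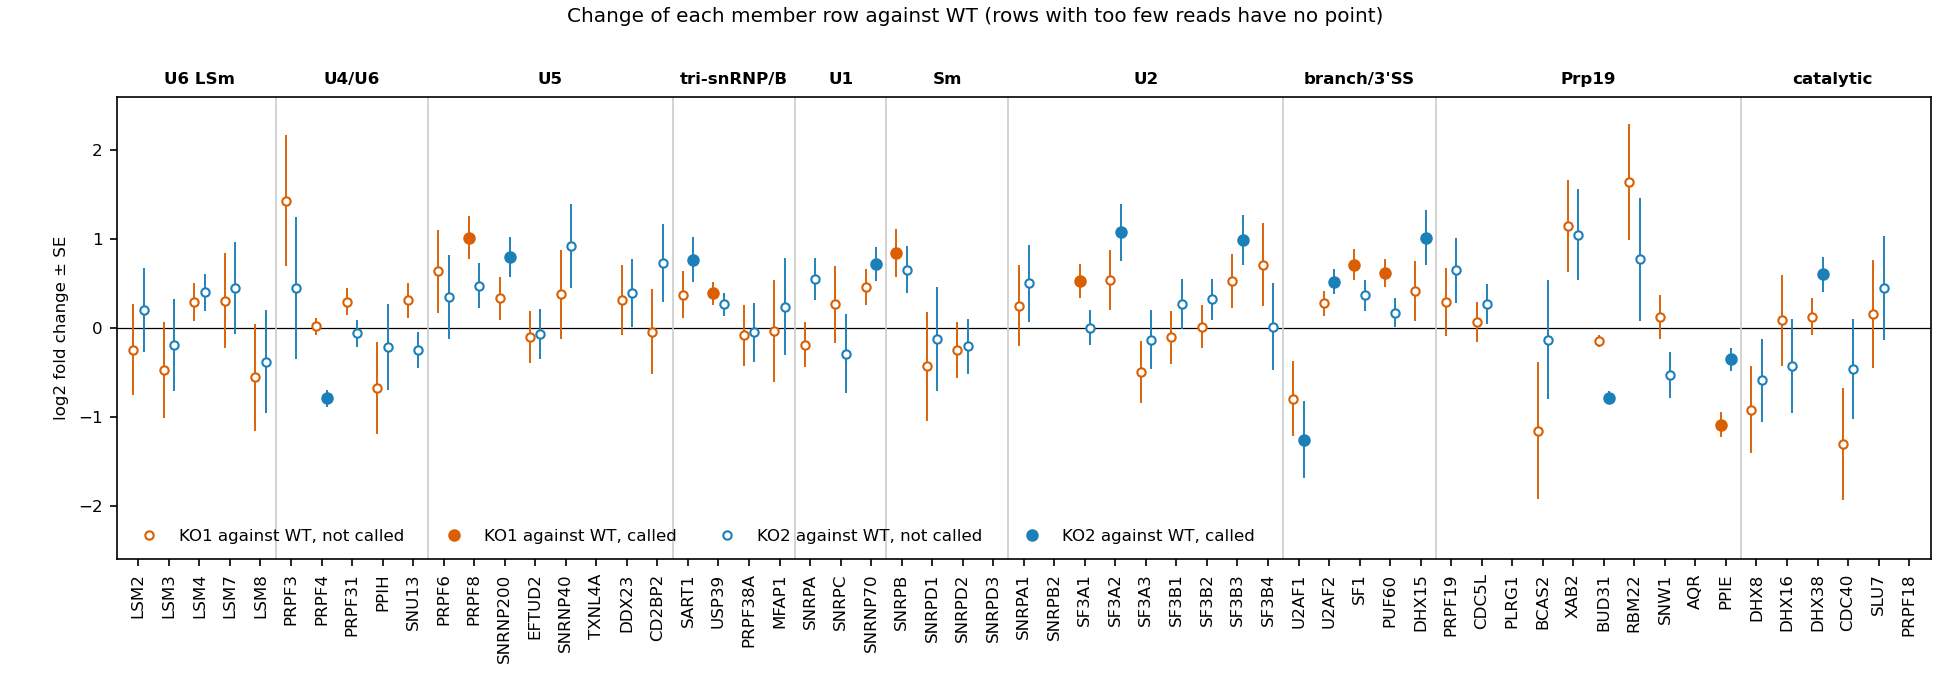
log2 fold change with its standard error of each tested member row in KO1 (orange) and KO2 (blue) against WT, by subcomplex; filled points passed the edgeR threshold. The PPIE row is the only one filled and below 0 in both lines, and the points of sparse rows such as PRPF3 and RBM22 carry wide errors.

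The 3 proteins of the U1 particle were represented mainly by SNRNP70, which binds the first stem-loop of U1 RNA and contacts exon-bound activators. Its row had 84 and 110 reads in WT, 150 and 103 for KO1, and 197 and 152 for KO2. Both KO2 libraries were above both WT libraries, and the row rose by 0.72 ± 0.19 (SE) on the log2 scale in KO2 (adjusted p = 0.00406), with 0.46 in KO1 (adjusted p = 0.0943). Without KO2 replicate 1 the KO2 difference was 0.49 (adjusted p = 0.131). SNRPA, another RNA-binding protein of U1, had 56 and 54 reads in WT, 43 and 48 for KO1, and 87 and 90 for KO2. It was lower in KO1 than in KO2 by a log2 difference of -0.74 (adjusted p = 0.0226) and was called in neither line against WT. That call was lost without KO1 replicate 1 (-0.62, adjusted p = 0.173) or without either KO2 library (-0.74 and -0.76, adjusted p = 0.0895 and 0.0773). The C19orf54 row, which shares 89 bases with SNRPA on the other strand, had 3745 to 4842 reads per library. SNRPC, which steadies the pairing of U1 with the intron, had 14 to 21 reads per library and was not called.

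The branch point and 3′ splice site factors comprised 5 members, and each was called in 1 line. In KO1 2 were higher (40%, with 10.4% of all rows). In KO2 2 were higher and 1 lower (40% and 20%, with 13.6% and 15.4% of all rows). With 5 rows these shares are coarse, and the share of all rows called in either line was not computed. U2AF2, which reads the pyrimidine tract, had 182 and 176 reads in WT, 231 and 180 for KO1, and 270 and 294 for KO2. The KO2 libraries were the highest, and the row rose by 0.52 ± 0.14 in KO2 (adjusted p = 0.00354). The AC008735.2 row inside U2AF2 on the other strand had 1358 and 1386 reads in WT, 1276 and 1276 for KO1, and 1463 and 1672 for KO2, and differed by 0.06 in KO2 (adjusted p = 0.620). SF1, the protein that first binds the branch point, had 104 and 107 reads in WT, 160 and 166 for KO1, and 138 and 161 for KO2. All 4 knockout libraries were above WT in reads, and the row rose in KO1 by 0.71 ± 0.17 (adjusted p = 0.00209), while in KO2 the value was 0.37 (adjusted p = 0.121). PUF60, which binds uridine-rich tracts beside U2AF, had 148 and 126 reads in WT, 211 and 187 for KO1, and 174 and 164 for KO2. It rose in KO1 by 0.61 ± 0.16 (adjusted p = 0.00381) and was higher in KO1 than in KO2 by 0.45 (adjusted p = 0.0375).

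U2AF1, the partner of U2AF2 that reads the AG at the intron's end, was sparse, with 28 and 29 reads in WT, 17 and 14 for KO1, and 13 and 13 for KO2. It was lowest in KO2, where it fell by 1.26 on the log2 scale (SE 0.43, adjusted p = 0.0246). U2AF1 has a near-identical annotated copy, so how its reads were divided is uncertain. DHX15, the helicase that dismantles the spent complex, had 25 and 25 reads in WT, 29 and 34 for KO1, and 61 and 50 for KO2, and rose in KO2 by 1.01 ± 0.31 (adjusted p = 0.0116). Several of these calls rested on single libraries. The U2AF1 call was lost without any 1 of the WT or KO2 libraries, with adjusted p between 0.0831 and 0.115, and with its bin median taken out (-0.86, adjusted p = 0.163). DHX15 gave 0.83 without KO2 replicate 1 (adjusted p = 0.127) and 0.96 without WT replicate 2 (adjusted p = 0.0637). With its bin median taken out U2AF2 gave 0.35 (adjusted p = 0.0657). U2AF2 gave 0.44 (adjusted p = 0.0564) and PUF60 0.45 (adjusted p = 0.108) without WT replicate 2, whereas SF1 in KO1 passed in all 16 other settings, from 0.64 to 0.81. The PUF60 difference between the lines was lost without any 1 of the 4 knockout libraries, at 0.36 to 0.52 (adjusted p = 0.0632 to 0.256).

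Of the 9 U2 proteins 8 were tested. SF3A1, a subunit that joins the branch-site binding SF3B complex to U2, had the most reads, with 110 and 102 in WT, 120 and 169 for KO1, and 119 and 114 for KO2. The second KO1 library stood alone at the top. The row was higher in KO1 by 0.53 ± 0.19 (adjusted p = 0.0424) and by 0.53 against KO2 (adjusted p = 0.0451), and without KO1 replicate 2 these values were 0.21 (adjusted p = 0.627) and 0.21 (adjusted p = 0.642). Without WT replicate 2 the first was 0.42 (adjusted p = 0.233), and without KO2 replicates 1 and 2 the second was 0.59 (adjusted p = 0.0793) and 0.45 (adjusted p = 0.217). With the bin medians taken out they were 0.44 (adjusted p = 0.113) and 0.25 (adjusted p = 0.446). The opposite CCDC157 row lies mostly over RNF215, with 3098 shared bases against 218 in SF3A1, and differed by 0.03 in KO1 (adjusted p = 0.787).

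SF3A2, another SF3A subunit, had 21 and 24 reads in WT, 34 and 28 for KO1, and 53 and 51 for KO2. Its groups did not overlap, and it rose in KO2 by 1.07 ± 0.32 (adjusted p = 0.0091). PLEKHJ1, head to head with SF3A2 and also over DOT1L, had 5524 and 6257 reads in WT, 5972 and 5599 for KO1, and 8961 and 9704 for KO2. Its KO2 libraries stood above the other 4, and it rose by 0.53 ± 0.06 in KO2 (adjusted p = 1.04e-09) with 0.06 in KO1 (adjusted p = 0.532). SF3B3, a scaffold of SF3B, had 34 and 31 reads in WT, 54 and 35 for KO1, and 57 and 85 for KO2, and rose in KO2 by 0.99 ± 0.28 (adjusted p = 0.00714). SF3A2 was no longer called without WT replicate 1 (1.03, adjusted p = 0.0515) or KO2 replicate 1 (1.01, adjusted p = 0.0543), nor SF3B3 without WT replicate 2 (0.87, adjusted p = 0.0575) or KO2 replicate 2 (0.72, adjusted p = 0.152). SF3B1, the subunit that grips the branch helix, had 33 to 57 reads per library and was not called, with -0.11 in KO1 and 0.27 in KO2. SF3A3, SF3B2, SF3B4 and SNRPA1 were not called in any comparison.

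The Sm ring holds the shared core of U1, U2, U4 and U5. SNRPB, which has the closely related gene SNRPN, had 30 and 70 reads in WT, 100 and 69 for KO1, and 78 and 94 for KO2, and it rose in KO1 by 0.84 ± 0.27 (adjusted p = 0.018). The 2 WT libraries lay far apart, and KO1 replicate 2 had fewer reads than WT replicate 2, though more in CPM (9.77 against 8.78). Without WT replicate 1 the difference was 0.40 (adjusted p = 0.381), and without KO1 replicate 1 it was 0.59 (adjusted p = 0.183). With its bin median taken out it was 0.70 (adjusted p = 0.0622). SNRPD1 and SNRPD2 were not called, and SNRPD3 with 4 to 11 reads was not tested. GUCD1, head to head with SNRPD3, had 369 and 411 reads in WT, 441 and 498 for KO1, and 456 and 429 for KO2, and rose in KO1 by 0.35 ± 0.10 (adjusted p = 0.0107). That value was 0.21 without KO1 replicate 2 (adjusted p = 0.255) and 0.32 without WT replicate 1 (adjusted p = 0.0776). DESeq2 did not call it.

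The LSm proteins form the ring on the 3′ end of U6, the RNA that THUMPD2 modifies. None of the 5 members was called in any comparison by edgeR, none had an unadjusted p under 0.05, and DESeq2 and limma-voom gave 0. LSM4 had the most reads, 63 and 95 in WT, 95 and 87 for KO1, and 117 and 111 for KO2, with log2 differences of 0.29 ± 0.21 and 0.40 ± 0.21. In CPM both KO1 libraries (12.7 and 12.3) and both KO2 libraries (14.2 and 12.8) were above WT (8.50 and 11.9), by differences that did not pass the test. LSM2, LSM3, LSM7 and LSM8 had 7 to 27 reads per library and log2 differences with standard errors of 0.48 to 0.60. At this depth changes well beyond those errors could also go uncalled, as for XAB2 below. The XPC row, head to head with LSM3, had 49 and 72 reads in WT, 52 and 65 for KO1, and 89 and 86 for KO2, with 0.04 ± 0.25 and 0.40 ± 0.24.

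Among the 5 U4/U6 proteins PRPF4, which binds PRPF3 on the U4/U6 duplex, had the most reads. Its row had 517 and 617 reads in WT, 518 and 566 for KO1, and 337 and 380 for KO2. KO1 overlapped WT and both KO2 libraries were lower, and the row fell in KO2 by 0.79 on the log2 scale (SE 0.10, adjusted p = 4.65e-08), with 0.02 in KO1 (adjusted p = 0.917). The difference between the lines was 0.81 (adjusted p = 5.27e-08), and both calls passed in all 15 other settings that could be fitted. PRPF4 lies head to head with CDC26, a subunit of the anaphase-promoting complex, over 208 bases. The CDC26 row had 17 and 17 reads in WT, 17 and 10 for KO1, and 10 and 3 for KO2, so here the member row was the larger by 39.7 times. The summed reads of the U4/U6 proteins were 111 and 112 CPM in WT, 115 and 126 for KO1, and 75.6 and 78.7 for KO2. Without PRPF4 they were 41.1 and 34.860, 46.3 and 46.3, and 34.64 and 34.855 CPM, so the KO2 sums then lay just under the lower WT sum of 34.860.

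SNU13, which binds a bent stem of U4, had 117 and 94 reads in WT, 135 and 113 for KO1, and 103 and 92 for KO2. It was higher in KO1 than in KO2 by 0.56 (adjusted p = 0.0378), a call lost without any 1 of the 4 knockout libraries (adjusted p = 0.0515 to 0.274) and also with its bin median taken out (0.16, adjusted p = 0.669), and it was called in neither line against WT. PRPF31 had 0.29 in KO1 and -0.06 in KO2 and was not called, while AC245052.4 over it rose by 0.14 in KO1 (adjusted p = 0.0388) and fell by 0.20 in KO2 (adjusted p = 0.00341). These small changes of AC245052.4 were lost without WT replicate 1 (0.16, adjusted p = 0.166, in KO1; -0.19, adjusted p = 0.0661, in KO2), and the KO1 call also without WT replicate 2 (0.13, adjusted p = 0.272) or either KO2 library (adjusted p = 0.0694 and 0.0688), and with the bin median taken out (0.039, adjusted p = 0.680). The KO2 call was also lost without KO2 replicate 1 (-0.17, adjusted p = 0.0844). PPIH, a prolyl isomerase of the tri-snRNP, had 9 to 20 reads per library under AC098484.4, an antisense transcript with a mean of 3546 reads, and neither row was called.

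Of the U5 proteins PRPF8, the scaffold of the catalytic centre, had 34 and 61 reads in WT, 92 and 89 for KO1, and 75 and 69 for KO2. All knockout libraries were above WT, and the row rose in KO1 by 1.01 ± 0.25 (adjusted p = 0.00179), with 0.47 ± 0.25 in KO2 (adjusted p = 0.173). Without WT replicate 1 the KO1 difference was 0.70 (adjusted p = 0.0754). The antisense AC130343.2 row, head to head with PRPF8, had 2213 and 2458 reads in WT, 2338 and 2298 for KO1, and 2272 and 2538 for KO2, and was called in neither line (0.07 and -0.09). SNRNP200, the helicase that unwinds U4 from U6, had 63 and 56 reads in WT, 82 and 60 for KO1, and 95 and 132 for KO2. It rose in KO2 by 0.79 ± 0.22 (adjusted p = 0.00638), and gave 0.58 without KO2 replicate 2 (adjusted p = 0.143), 0.66 without WT replicate 2 (adjusted p = 0.0705) and 0.58 with its bin median taken out (adjusted p = 0.0597).

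EFTUD2, the GTPase of U5, had 33 to 52 reads and was not called, with -0.10 and -0.07. Its opposite gene CCDC103 had 1839 and 2048 reads in WT, 1470 and 1591 for KO1, and 1434 and 1632 for KO2. That row fell by 0.26 in KO1 (adjusted p = 0.00629) and by 0.48 in KO2 (adjusted p = 1.95e-06), but 2230 of its opposite-strand bases lie over GFAP and 389 over EFTUD2. With the median of its 10 Mb bin taken out neither call remained, at -0.031 (adjusted p = 0.831) and -0.097 (adjusted p = 0.372). The KO1 value was -0.17 without KO1 replicate 1 (adjusted p = 0.0876) and -0.24 without WT replicate 2 (adjusted p = 0.0668). HIGD1B, the other opposite gene, had 155 and 146 reads in WT, 94 and 87 for KO1, and 152 and 146 for KO2, and fell in KO1 by 0.66 (adjusted p = 0.00627), or by 0.56 without WT replicate 1 (adjusted p = 0.0792), and was -0.42 with its bin median taken out (adjusted p = 0.1001). PRPF6, SNRNP40, DDX23 and CD2BP2 had 10 to 45 reads per library and were not called.

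Among the proteins that join the tri-snRNP to the assembling complex, USP39 had 212 and 194 reads in WT, 267 and 236 for KO1, and 252 and 284 for KO2. All 4 knockout libraries were above WT. It rose in KO1 by 0.39 ± 0.13 (adjusted p = 0.0308), with 0.26 in KO2 (adjusted p = 0.143). That call was lost without KO1 replicate 1 (0.34, adjusted p = 0.161), KO1 replicate 2 (0.43, adjusted p = 0.0517) or WT replicate 2 (0.27, adjusted p = 0.316). The C2orf68 row inside USP39 had 10 and 10 reads in WT, 17 and 7 for KO1, and 11 and 19 for KO2, fewer than the member. SART1, which bridges to the tri-snRNP, had 44 and 46 reads in WT, 49 and 61 for KO1, and 93 and 75 for KO2, and rose in KO2 by 0.77 ± 0.25 (adjusted p = 0.0175). It was no longer called without KO2 replicate 1 (0.57, adjusted p = 0.204), WT replicate 1 (0.78, adjusted p = 0.0558) or WT replicate 2 (0.75, adjusted p = 0.0745). PRPF38A and MFAP1, which act at the activation step, were not called.

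The Prp19 complex and its partners held both the only member lower in both lines, PPIE, and the member with the most reads, BUD31. PPIE, a prolyl isomerase that enters with the activated complex, had 297 and 279 reads in WT, 121 and 135 for KO1, and 230 and 265 for KO2. The groups did not overlap and KO1 was lowest. The row fell by 1.09 on the log2 scale in KO1 (SE 0.14, adjusted p = 2.04e-07) and by 0.36 in KO2 (SE 0.13, adjusted p = 0.041), and KO1 was lower than KO2 by a difference of -0.73 (adjusted p = 0.000223). The KO1 call and the difference passed in all 16 other settings, but the KO2 call was lost in 10 of 16, among them without WT replicate 1 (-0.26, adjusted p = 0.326) and without either KO2 library (-0.28 and -0.42, adjusted p = 0.251 and 0.0729), and with its bin median taken out (-0.24, adjusted p = 0.229). BMP8B, which shares 80 bases with PPIE on the other strand, had 128 to 255 reads and rose in KO2 by 0.48 (adjusted p = 0.0149), the other direction from PPIE.

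BUD31 had 1798 and 1874 reads in WT, 1558 and 1576 for KO1, and 1122 and 1217 for KO2. The KO2 libraries were lowest, and the row fell in KO2 by 0.79 on the log2 scale (SE 0.07, adjusted p = 2.23e-11), with -0.15 in KO1 (adjusted p = 0.122) and 0.64 between the lines (adjusted p = 5.82e-09). BUD31 lies at chr7:99408641-99419616 on the plus strand between 2 genes of the minus strand, PTCD1 at its end with 919 shared bases and PDAP1 at its start with 189. PTCD1, a mitochondrial RNA-binding protein, had 3153 and 3380 reads in WT, 3427 and 3204 for KO1, and 2422 and 2430 for KO2, and fell in KO2 by 0.56 (adjusted p = 3.87e-09). PDAP1 had 2294 and 2402 reads in WT, 1362 and 1406 for KO1, and 1254 and 1261 for KO2, and fell by 0.68 in KO1 (adjusted p = 7e-10) and 1.04 in KO2 (adjusted p = 1.66e-14). All tested rows of this 10 Mb stretch with enough reads had a median of -0.56 in KO2 and 0.043 in KO1. With the median of its bin taken out, BUD31 was lower in KO2 by a log2 difference of -0.21 and the difference between the lines was 0.03 (adjusted p = 0.822). The part of the stretch in these rows was not tested further.

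SNW1 had 82 and 58 reads in WT, 65 and 79 for KO1, and 42 and 65 for KO2 and was not called, with -0.53 in KO2. The SLIRP row over it had 3055 and 3276 reads in WT, 2912 and 2951 for KO1, and 2251 and 2513 for KO2, and fell in KO2 by 0.55 (adjusted p = 1.43e-08). Its own 10 Mb bin had a median of -0.55 in KO2, and with that taken out the SLIRP value was 0.018 (adjusted p = 0.890). PRPF19, CDC5L, BCAS2, XAB2 and RBM22 were not called, and AQR and PLRG1 were not tested. XAB2 had 6 and 12 reads in WT, 24 and 14 for KO1, and 17 and 24 for KO2, and its differences of 1.15 and 1.05 carried standard errors of 0.52 and 0.51.

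Of the 6 helicases and second-step factors of the catalytic steps, DHX38 had the most reads, 82 and 101 in WT, 111 and 78 for KO1, and 164 and 140 for KO2. KO1 overlapped WT and KO2 lay above both. The row rose in KO2 by 0.60 ± 0.19 (adjusted p = 0.0166), a call lost without KO2 replicate 1 (0.45, adjusted p = 0.192) or WT replicate 1 (0.51, adjusted p = 0.123). PMFBP1, tail to tail with it, had 2023 and 2170 reads in WT, 1873 and 1749 for KO1, and 1983 and 2278 for KO2 and was not called. DHX8, DHX16, CDC40 and SLU7 had 4 to 23 reads per library and were not called. PRPF18, a second-step factor, had 0 to 2 reads. RPL6P24 is a processed pseudogene inside PRPF18, and how reads were split between it and similar copies is uncertain. Its row had 131 and 131 reads in WT, 81 and 68 for KO1, and 70 and 58 for KO2. It fell by 0.74 in KO1 (adjusted p = 0.00625) and 1.17 in KO2 (adjusted p = 2.68e-05), while its 10 Mb bin had medians of -1.0001 and -0.41. The KO1 call was lost without KO1 replicate 2 (-0.66, adjusted p = 0.061).

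**Figure D3:**
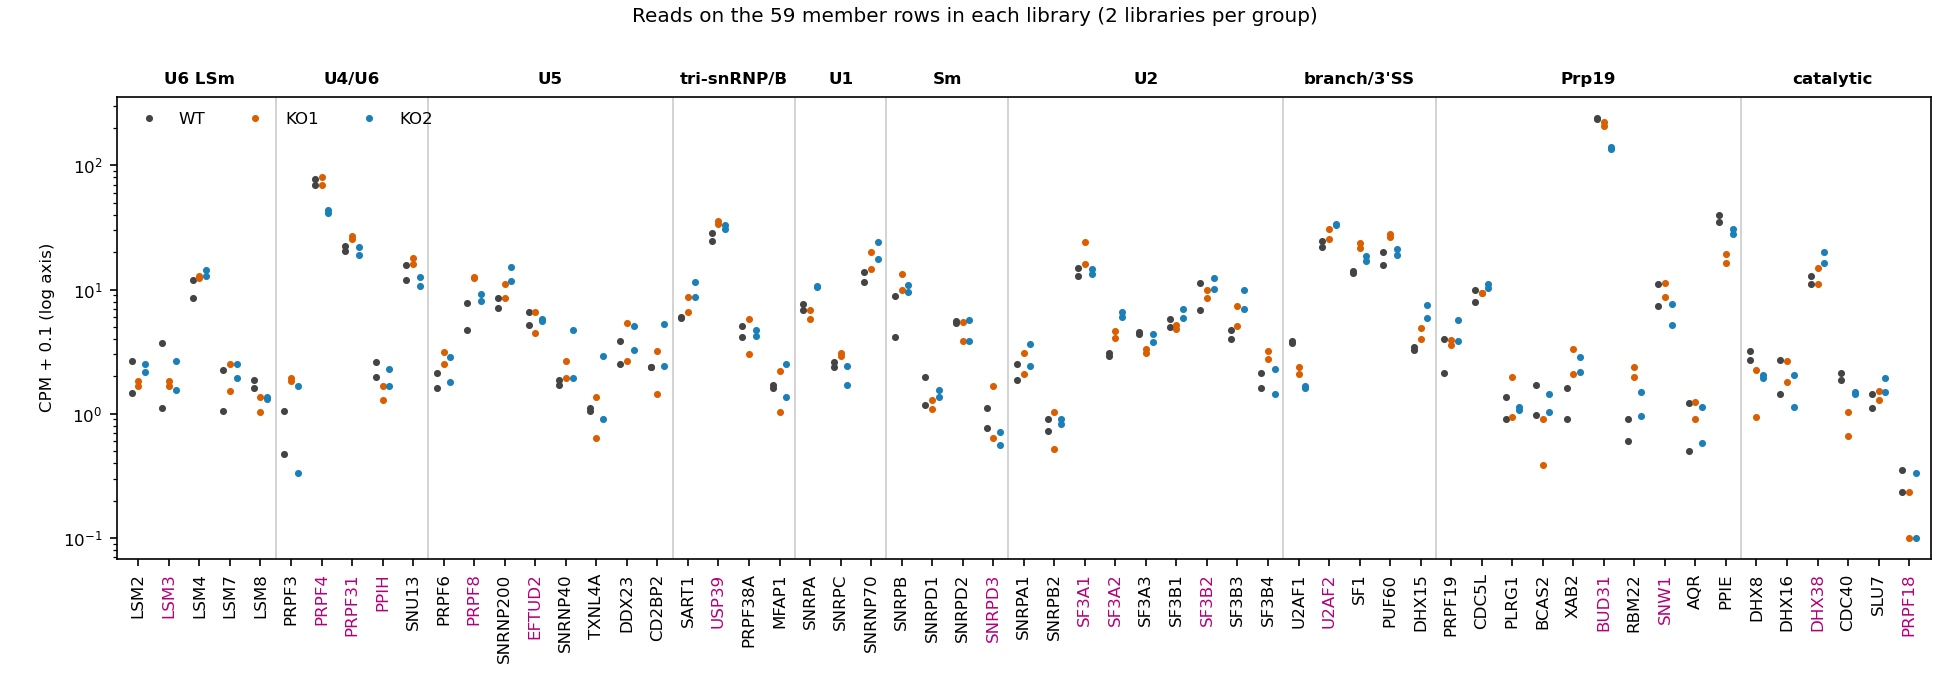
CPM plus 0.1 on a log axis for the 59 member rows in the 6 libraries (2 each of WT, KO1 and KO2), by subcomplex; names in magenta have an opposite-strand gene with at least 100 shared exonic bases. BUD31 and PRPF4 stand above the other rows, and their KO2 libraries lie below WT and KO1.

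Compared by subcomplex, the median log2 difference in KO1 ran from -0.25 for the LSm and Sm rings to 0.41 for the branch point factors, and in KO2 from -0.43 for the catalytic step factors to 0.55 for the U1 proteins. The groups of 3 to 8 tested rows were small. Over the other settings the KO1 medians of the LSm and Sm rings ran from -0.64 to 0.31 and from -0.31 to 0.86, and the KO2 median of the catalytic step factors from -0.46 to 0.65, so these carry no direction. The medians of the U1, U2, U5 and branch point groups were above 0 in both lines and kept that sign in all 11 other settings in which they were computed. Their lowest values there were 0.079 for U2 in KO1 and 0.030 for U5 in KO2. The U5 median in KO1 (0.33) was smaller than its SD between replicate libraries (0.39). These settings reuse the same 6 libraries, so a kept sign is not separate evidence. The summed CPM of the U5 proteins was 27.5 and 31.5 in WT, 37.6 and 41.5 for KO1, and 40.7 and 44.4 for KO2, so that both lines lay above WT. That of the U2 proteins was 43.6 and 44.6, 50.04 and 56.8, and 53.5 and 57.2 CPM, and that of the branch point factors 65.7 and 58.1, 86.5 and 82.2, and 79.7 and 78.7 CPM. The U1 proteins had 21.2 and 23.1, 28.6 and 24.3, and 36.8 and 29.5 CPM. The tri-snRNP joining proteins had 40.2 and 36.6, 46.0 and 49.8, and 49.0 and 46.9 CPM. The LSm ring had 17.4 and 17.9, 19.5 and 18.1, and 21.1 and 21.1 CPM. Sums above WT in both lines thus also occurred where the KO1 median was below 0. The Prp19 group had its highest sums in WT, with 310 and 294 CPM in WT, 254 and 273 for KO1, and 190 and 202 for KO2, and BUD31 supplied 77.6% of its reads. Without BUD31 its sums were 67.4 and 59.3, 46.0 and 49.96, and 53.6 and 61.1 CPM. These sums are descriptions, with no test, of rows that mostly hold under 100 reads each.

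The 20 opposite-strand rows, which hold far more reads, included 10 that were called in at least 1 line. The share of all rows called in at least 1 line was not computed, so this count has no background. In KO1 3 were higher and 4 lower (15% and 20%, with 10.4% and 13.3% over all rows), and in KO2 1 was higher and 6 lower (5% and 30%, with 13.6% and 15.4%). CCDC103, PDAP1 and RPL6P24 were lower in both lines, 15% against 7.72% of all rows, and AP006287.2, tail to tail with SF3B2, was higher in KO1. With the bin medians taken out CCDC103 was called in neither line and RPL6P24 was 0.27 in KO1 (adjusted p = 0.397), which left PDAP1 of these 3. The number of opposite-strand rows called in both lines was still 3 with that offset, because other rows were newly called in both. AP006287.2 had 36 and 26 reads in WT, 60 and 51 for KO1, and 44 and 51 for KO2, and rose by 0.91 ± 0.29 (adjusted p = 0.0184), or by 0.83 without KO1 replicate 1 (adjusted p = 0.0929) and 0.65 without WT replicate 2 (adjusted p = 0.229). Only 12 of the 20 rows have at least 80% of their opposite-strand bases over the member, so a change of such a row need not concern the member. Of the rows with fewer shared bases, 3 chosen after their values were seen were also called in both lines. HSBP1L1 (12 bases over TXNL4A) fell by 1.43 and 0.98, and C22orf46 (43 bases over SNU13) fell by 0.55 and 0.63. ETV4 (68 bases over DHX8) rose by 0.84 and 0.88. The other rows of this kind named above were not called in both lines. Over all rows 7.72% were lower in both and 5.79% higher.

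**Figure D4:**
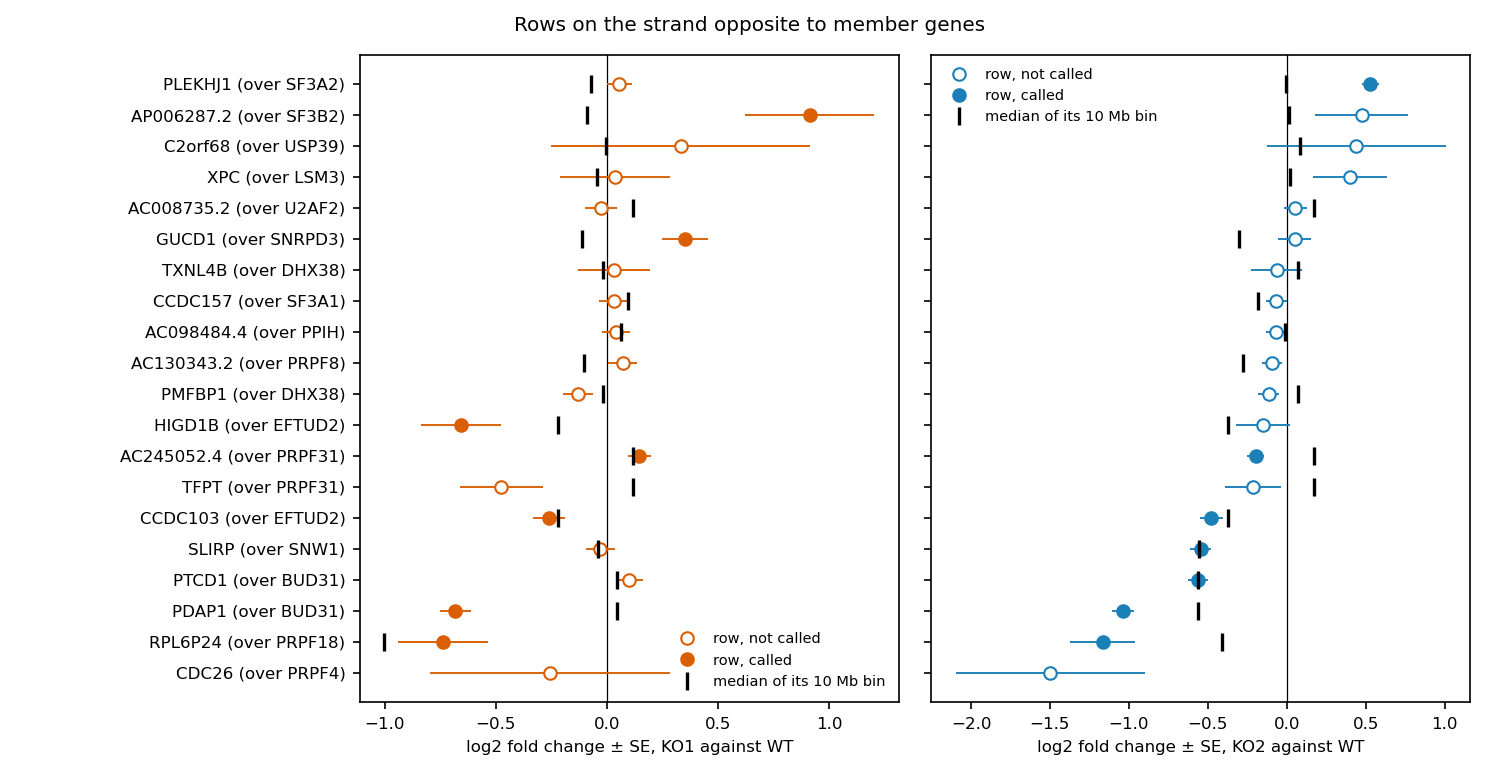
log2 fold change with its standard error for the 20 rows on the strand opposite to members, in KO1 (left) and KO2 (right) against WT; filled points passed the edgeR threshold and the black ticks mark the median of the row's 10 Mb bin. In KO2 the PTCD1 row is itself the median of its bin (-0.56), so its point lies there by construction. The SLIRP point lies near its bin median of -0.55, whereas PLEKHJ1 at 0.53 lies away from its own.

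A second list of 68 spliceosomal proteins outside the core, among them U1-associated factors, isomerases and exon junction proteins, matched 67 rows, of which 49 were tested. In KO1 2 were higher and 5 lower, shares of 4.08% and 10.2% against 10.4% and 13.3% of all rows. In KO2 4 were higher and 8 lower, shares of 8.16% and 16.3% against 13.6% and 15.4%. Their medians were -0.021 and -0.058. Lower in both lines were 4 rows, PRPF39, PRPF40B, CHERP and PPIL2, a share of 8.16% near the 7.72% of all rows. PRPF39, a U1-associated factor, had 5091 and 5014 reads in WT, 4298 and 3946 for KO1, and 2947 and 3341 for KO2, and fell by 0.22 in KO1 (adjusted p = 0.00859; -0.15 and adjusted p = 0.248 without WT replicate 1) and 0.82 in KO2 (adjusted p = 4.97e-13). The opposite gene under it is FKBP3. PRPF40B lies over FMNL3 and FAM186B, had 462 and 534 reads in WT, 340 and 303 for KO1, and 445 and 435 for KO2, and fell by 0.55 and 0.31 (adjusted p = 5.87e-05 and 0.0139). CHERP over C19orf44 had 809 and 867 reads in WT, 741 and 597 for KO1, and 696 and 697 for KO2. CHERP fell by 0.25 and 0.40 (adjusted p = 0.0286 and 0.000263), and PPIL2 over YPEL1, with 206 and 214 reads in WT, 121 and 130 for KO1, and 165 and 184 for KO2, fell by 0.66 and 0.40 (adjusted p = 0.00144 and 0.0411). The weaker call of each of PRPF40B, CHERP and PPIL2 was lost without at least 1 library, at -0.25, -0.14 and -0.35 (adjusted p = 0.176, 0.347 and 0.208) without KO2 replicate 2, KO1 replicate 2 and KO2 replicate 1. With the bin medians taken out CHERP was -0.15 in KO1 (adjusted p = 0.218) and PPIL2 -0.091 in KO2 (adjusted p = 0.730).

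The promoters of the members were searched for 5 short motifs, which the choice of members did not use. RefSeq windows on GRCh38.p14, from 250 bases before to 50 after the start, were found for 53 of the 59. The ETS core CCGGAAGT, searched on both strands, occurred in 15 of them (28.3%), against 4.44% of 27305 promoters and 6.19% of the 15842 promoters of protein-coding genes. It was present in 6 of 8 U2 proteins and in none of the 5, 3 and 3 windows matched for the LSm, U4/U6 and U1 proteins. With so few windows an absence from these groups does not set them apart from all coding promoters. The YY1 letters AAGATGGC and the NRF1 letters GCGCATGC each occurred in 6 (11.3%, against 3.91% and 4.26% of coding promoters), CCAAT in 20 (37.7% against 36.4%) and TATAAA in 2 (3.77% against 9.63%). The ETS letters were present in 6 of 15 windows of members called in KO1 or KO2 and in 9 of 38 of the others. These 6 are shown because they carry both a call and the letters, up to 11 bases on each side and stopping at the start, 5′ to 3′ on the gene's strand, with the ETS letters in capitals.
SF3A1 (chr22:30356925-30356954, minus strand): aggggacggtcCCGGAAGTgcgccagtcgt
SF3A2 (chr19:2236804-2236823, plus strand): tctcatttgccCCGGAAGTg
SNRPB (chr20:2470812-2470841, minus strand): agtgagctggaCCGGAAGTaggtttctacc
U2AF2 (chr19:55654994-55655023, plus strand): gccggcggcggCCGGAAGTagccgaagcca
SART1 (chr11:65961703-65961732, plus strand): tgccgagcgacCCGGAAGTattcccatttt
BUD31 (chr7:99408808-99408837, plus strand): cctgccacccaCCGGAAGTgagggcaaatg
A match of letters is a description of the window and not a bound site. BUD31 and SF3A2 windows also lie over exons of PDAP1 and PLEKHJ1, and the SF3A1 window over an exon of CCDC157, the head-to-head partners named above.

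The authors' deposited table, which compares all 4 knockout with both WT libraries over 11785 rows, lists 32 of the members. In that table none has a q-value under 0.05, and the lowest is 0.0937, for SF1. The share of all its rows under 0.05 was not counted here, so this count has no background. Of the opposite-strand rows PDAP1 and RPL6P24 have q-values under 0.05 there (0.00575 and 0.0255). Of the 30 members in both, 29 had the same sign there as in the mean of both lines here, from the same libraries.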

How the data were processed

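Per the labels' protocols, total RNA of HEK293T cells was extracted with TRNzol and made into directional NEBNext Ultra II libraries. Per the submitters' processing notes, reads were handled with STAR 2.7.1a, HTSeq 0.6.1p1, Trim Galore and limma, and the builds named are GRCh38.p6 and hg38. How strand was set in the counting, and with which annotation, is not given in the sources used here. The deposited counts are whole reads for each symbol in 6 libraries, not normalized, and every test used them. The authors' deposited table of log2 fold changes and q-values was used only for the comparison with it.

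Counts were tested with edgeR 4.0.16 (quasi-likelihood F test, TMM scaling, filterByExpr, R 4.3.3) with all 3 groups in 1 fit and no covariate. There were 31.9 prior and 3 residual degrees of freedom and a biological coefficient of variation of 7.57%. Calls needed a p-value, adjusted by Benjamini-Hochberg over all 14184 tested rows, under 0.05. Nothing in the labels says that a replicate number marks a shared batch, so the numbers were not taken as pairs. Same-numbered libraries also did not deviate together.

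Rows were placed with GENCODE v29, 56239 by symbol and 230 through another symbol, while 175 symbols had several genes and 2443 were not placed. Medians per 10 Mb bin needed 15 rows that each averaged 50 reads, and such a row counted in the median of its own bin. Alternatives were DESeq2 1.42.0, limma-voom (limma 3.58.1), RLE and upper-quartile scaling, other filters, a fold threshold of 1.2, a replicate block, only the compared libraries, a 10 Mb bin offset and leaving out each library. Full values are given for members called in any comparison, the member with most reads in each subcomplex, and opposite-strand rows that were called or had the most reads in a subcomplex. Of the other spliceosomal proteins, up to 6 called in both lines are named. The members and lists were chosen with earlier results of these data known.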

Additional observations from a re-analysis of the deposited data

Results flagged for a closer look

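The rows below differed between KO1 and KO2 by the test of that difference itself (edgeR quasi-likelihood, adjusted p under 0.05), given as KO1 minus KO2 on the log2 scale. Among the members these were PRPF4 (0.81), BUD31 (0.64), SNU13 (0.56), SF3A1 (0.53) and PUF60 (0.45), all higher in KO1, and SNRPA (-0.74) and PPIE (-0.73), both lower in KO1. Among the opposite-strand rows PTCD1 (0.66) and PDAP1 (0.35) over BUD31, SLIRP (0.52) over SNW1, AC245052.4 (0.34) over PRPF31, GUCD1 (0.30) over SNRPD3 and CCDC103 (0.22) over EFTUD2 were higher in KO1, and HIGD1B (-0.51) over EFTUD2 and PLEKHJ1 (-0.48) over SF3A2 were lower. The HIGD1B difference passed in 6 of 16 other settings, GUCD1 in 10 and CCDC103 in 12, while PLEKHJ1 passed in all 16. HIGD1B was not called by DESeq2 (-0.49, adjusted p = 0.153). Of the other spliceosomal proteins PRPF39 differed by 0.61. With the median of each row's 10 Mb bin taken out, 7 of these differences were no longer called: BUD31 (0.032, adjusted p = 0.822), SNU13 (0.16, adjusted p = 0.669), SF3A1 (0.25, adjusted p = 0.446), PTCD1 (0.058, adjusted p = 0.610), SLIRP (0.0022, adjusted p = 0.990), CCDC103 (0.066, adjusted p = 0.620) and GUCD1 (0.11, adjusted p = 0.549). PDAP1 turned to -0.25 (adjusted p = 0.00985), and PRPF4 and PRPF39 had no bin value. PTCD1 in KO2 is the median row of its own bin, so the offset took out its KO2 value by construction. The part of the bins in the differences was not tested beyond this offset.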

How the results depend on the processing

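The number of members called in KO1 (7) was 4 with DESeq2 and 4 with the fold threshold, and that in KO2 (12) was 4 with DESeq2 and 7 with the 10 Mb bin offset. In the mean of both lines (14) it was 5, 3 and 9 with DESeq2, the fold threshold and the bin offset, and between the lines (7) it was 3 with each of them. PRPF4 and DHX15 had no bin value and were not tested with the bin offset. Part of the smaller counts with that offset is therefore rows that dropped out. The number of members called in both lines (1, PPIE) was 0 with DESeq2, the fold threshold, no filter on low counts and the replicate block, and 2 with limma-voom (SNRPB and PPIE) and upper-quartile scaling (SNRNP70 and SNRPB). The 1 such member was SNRPB with at least 50 reads in 2 libraries and PRPF8 with the bin offset. With the replicate block the calls were otherwise 6 in KO1, 11 in KO2, 14 in the mean and 6 between the lines, and same-numbered libraries had correlations of -0.024, -0.022 and -0.026. Opposite-strand rows called in KO1 (7) were 3 with the fold threshold, and counting those with at least 1 shared base they were 11 in KO1, 13 in KO2 (from 7) and 6 in both (from 3). Leaving out 1 library gave 4 to 7 members in KO1, 7 to 13 in KO2, 0 to 4 in both, 6 to 14 in the mean and 3 to 8 between the lines, and 4 to 6, 6 to 8 and 2 to 3 opposite-strand rows in KO1, KO2 and both. With the bin offset 4 called values changed sign: PDAP1 between the lines (-0.25), PTCD1 in KO2 (0.0094), SLIRP in KO2 (0.018) and RPL6P24 in KO1 (0.27). The PTCD1 row is the median of its own bin in KO2, so its offset value near 0 was fixed in advance. The cause of the other sign changes was not tested. Calls that held in every setting run were 2 of 7 in KO1 (SF1 and PPIE), 2 of 12 in KO2 (PRPF4 and BUD31, PRPF4 without a bin value) and 2 of 7 between the lines (PRPF4 and PPIE). Depth limits what could be called, since 27 members had a mean under 20 reads.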
